A study of Homo sapiens with 7 samples.

Results

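Super-enhancers (SEs) built from only 1 to 3 H3K27ac peaks were examined in HepG2, a human liver cancer cell line, after treatment with tunicamycin (TM), an inhibitor of N-linked glycosylation that induces endoplasmic reticulum stress (ERS), or with its vehicle DMSO. H3K27ac ChIP-seq was available for 3 TM and 3 DMSO libraries, and for each library a list of SEs had been deposited in which the name of every SE begins with the number of stitched peaks. SEs whose number was 1, 2 or 3 were selected, which gave 565 of 7472 listed SEs: 505 of 3890 in the TM lists and 60 of 3582 in the DMSO lists. All cells were the same parental line with no genetic change named in the labels. How much TM was used for these libraries, for how long, and on how many separate cultures could not be read from the labels, so every spread below is that between libraries, which may be technical.

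An SE is a cluster of enhancers that lie close together on the chromosome and carry an unusually large summed amount of an active mark such as H3K27ac, the acetylation of histone H3 at lysine 27. SEs are obtained by joining neighbouring peaks into 1 region, summing the signal over the region and keeping the regions above a cut-off of the ranked signals. They are known for lying near genes of cell identity and oncogenes, and most of them span many peaks. An SE of 1 to 3 peaks therefore reaches the cut-off with few separate stretches of signal, and the same chromosome segment can be listed with few peaks in one library and with many in another. Each treated library is a bulk culture, in which a change in the number of cells that carry the mark and a change in the level per cell cannot be told apart.

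The files give no read numbers, so sequencing depth is unknown. Between 1130 and 1507 SEs were listed per TM library and between 1132 and 1290 per DMSO library. The lowest listed signal, which marks the cut-off of a library, was 18282, 26265 and 18884 in TM 1, TM 2 and TM 3, against 24793, 16747 and 24383 in DMSO 1, DMSO 2 and DMSO 3. Signal here is the deposited density per bp times the length of the SE. The lists name liver cells only in part: of 17 hepatocyte marker genes, 2 (CPS1 and TM4SF4) were linked to any SE and none to an SE with 1 to 3 peaks, and the rest, ALB and HNF4A among them, to no SE. Of 17 markers of other liver cell types, 5 (LUM, PDGFRB, PTPRC, CFTR and KRT7) were linked to any SE. Only 1 of the 17, PDGFRB, a receptor of stellate cells and fibroblasts, was linked to an SE with 1 to 3 peaks, in TM 2.

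The sequences that belong most directly to these SEs are those of the study's own guides against the CREB5 SE, which has 2 or 3 peaks in every TM library. CREB5 encodes a bZIP transcription factor of the CREB family. The guides were designed to bring a dCas9-KRAB repressor to this SE on chromosome 7, and the capitals mark the 10 bases at the 3′ end, where pairing matters most for dCas9 binding. Their exact positions are not given here because no genome of the build of the files was at hand.
First guide against the CREB5 SE: acagctgtttaATGACACTCT
Second guide, same SE: aaacaagagctGAACCTATGG
Last of these guides, CREB5 SE as well: cggagtgctgtGTTTCGGCCA

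Peak number chose these SEs, so their number, share and signal per library are read as a description, with no test. The share was 9.91%, 11.9% and 17.1% of the listed SEs in TM 1, TM 2 and TM 3, against 1.94%, 1.86% and 1.21% in DMSO 1, DMSO 2 and DMSO 3. The lowest TM library was above the highest DMSO library, and the means were 13.0% ± 3.70 in TM and 1.67% ± 0.403 in DMSO (SD, n = 3 each). SEs made of a lone peak numbered 14, 30 and 32 in the TM libraries, against 5, 4 and 4 in the DMSO libraries. SEs with 2 peaks numbered 36, 64 and 81 in TM, against 6, 8 and 3 in DMSO. SEs with 3 peaks numbered 62, 85 and 101 in TM, against 11, 12 and 7 in DMSO. The SEs with 1 to 3 peaks held 9.56% ± 2.81 of the listed signal in TM and 1.26% ± 0.271 in DMSO, and 5.20% ± 2.14 of the listed length in TM and 0.496% ± 0.146 in DMSO.

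**Figure D1:**
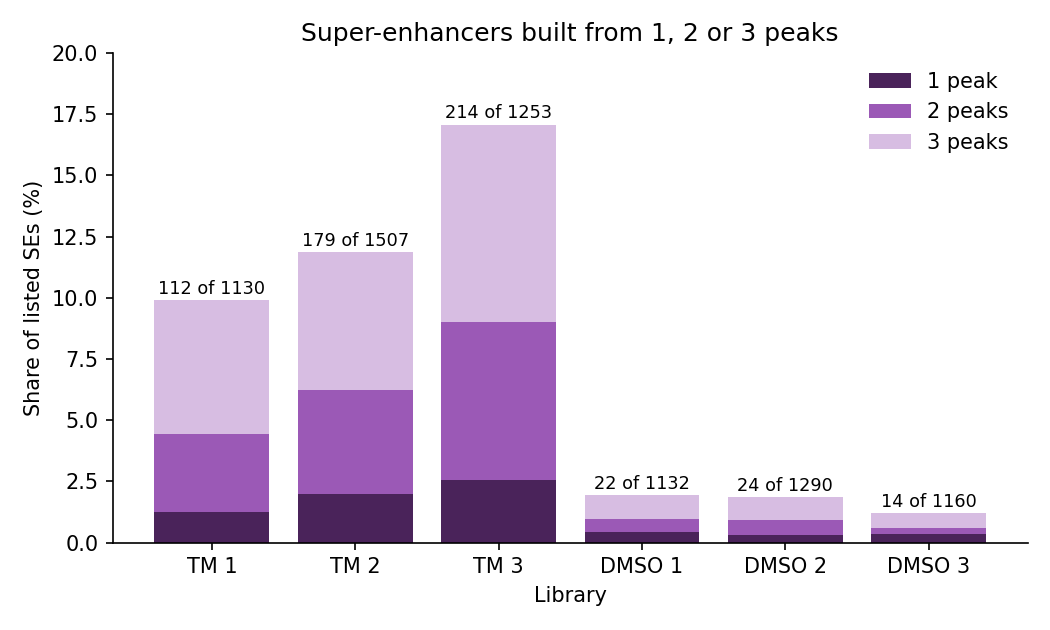
Share of the listed SEs (%, y axis) built from 1, 2 or 3 peaks (stacked colours) in each library (x axis), with the number of such SEs and of all listed SEs above each bar. The bars of the 3 TM libraries stand between 9.91% and 17.1%, all above the 3 DMSO libraries at 1.21% to 1.94%.

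The limit of 3 peaks lies on a slope that continues above it. SEs with 4 or 5 peaks made up 16.7% ± 4.08 of the TM lists and 4.25% ± 0.468 of the DMSO lists, and SEs with 6 or more peaks made up 70.3% ± 7.79 in TM and 94.1% ± 0.826 in DMSO. Just inside the limit, the 248 SEs with 3 peaks in the TM lists had a median length of 20.1 kb, and just outside it the 330 SEs with 4 peaks had 25.3 kb. In the DMSO lists the 30 SEs with 3 peaks had a median of 24.2 kb and the 59 SEs with 4 peaks had 27.1 kb. The highest serial number of a peak in a list, a lower bound on how many peaks were called in that library, moved with the share in part: it was 51506, 69519 and 46049 in the TM libraries, against 73872, 67570 and 76954 in the DMSO libraries. The TM 2 value lay above that of DMSO 2 and below those of DMSO 1 and DMSO 3. The part of peak calling in the share was not tested.

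**Figure D2:**
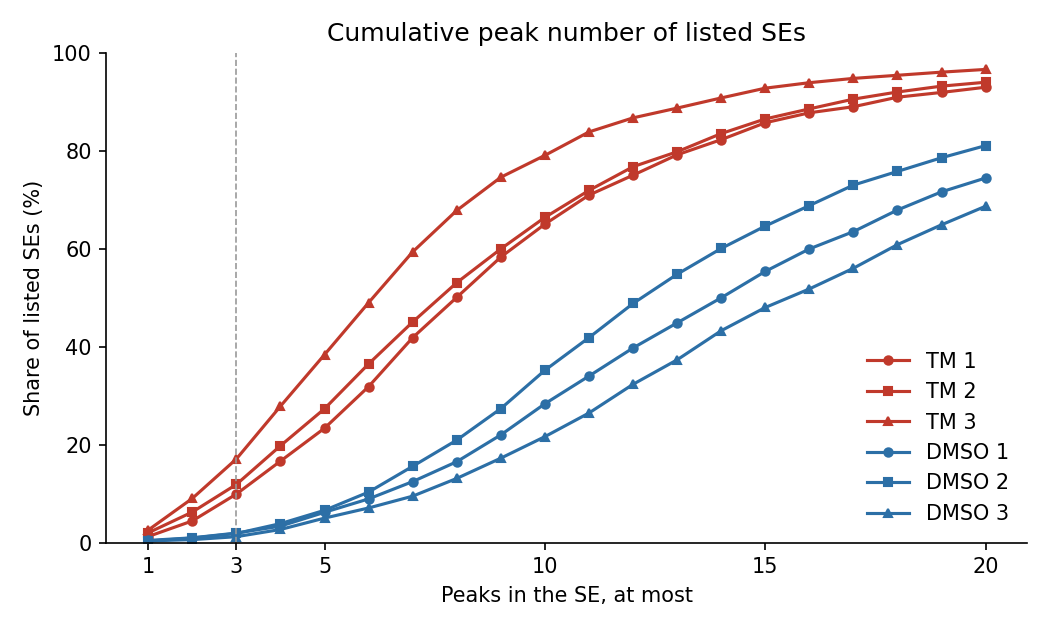
Share of the listed SEs (%, y axis) that have at most the number of peaks on the x axis, 1 line per library (TM red, DMSO blue; circles, squares and triangles are libraries 1, 2 and 3), with a dashed line at 3 peaks. The TM lines run above the 3 DMSO lines at every peak number from 1 to 20.

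Length and signal density were compared next, since the selection did not use them directly. The median length of SEs with 1 to 3 peaks was 18.4, 15.9 and 18.5 kb in TM 1, TM 2 and TM 3, against 21.2, 17.6 and 18.7 kb in DMSO 1, DMSO 2 and DMSO 3. The groups overlapped, and the means of 17.6 ± 1.45 kb and 19.2 ± 1.88 kb gave p = 0.4 (exact two-sided permutation test, n = 3 each, smallest possible p 0.1, adjusted p = 0.5 over 5 computed measures, of which the number, share and signal of few-peak SEs are not read as tests). The median density was 1.43, 2.32 and 1.46 signal units per bp in the TM libraries, against 1.83, 1.30 and 1.98 in the DMSO libraries (exact permutation p = 1.0). TM 2 was the highest of all 6 libraries and DMSO 2 the lowest. All listed SEs had a higher median density in TM, at 0.774, 1.09 and 0.889, than in DMSO, at 0.710, 0.580 and 0.683. Set against this median of their own library, the SEs with 1 to 3 peaks were 1.88 ± 0.242 times as dense in TM and 2.58 ± 0.326 times as dense in DMSO (exact permutation p = 0.1, the smallest possible). On this scale the groups did not overlap, at 1.85, 2.13 and 1.65 in TM, against 2.58, 2.25 and 2.90 in DMSO, and the sign of the density difference was the reverse of that on the deposited scale. Set instead against the median of the regions listed in all 6 libraries, the ratios were 1.79, 2.05 and 1.56 in TM, against 2.32, 2.03 and 2.60 in DMSO. There the groups overlapped (exact permutation p = 0.2).

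Pooled over libraries, SEs with more of the 3 peaks were longer and less dense in both treatments, although in DMSO 3 the median length was 27.4 kb with 2 peaks and 25.4 kb with 3. The median length of SEs with 1, 2 and 3 peaks was 11.4, 16.3 and 20.1 kb in the TM lists, and 15.2, 17.8 and 24.2 kb in the DMSO lists. Their median densities were 2.63, 1.79 and 1.43 in TM, and 2.83, 1.62 and 1.30 in DMSO. Since a sum over the SE had to pass the cut-off, a short SE could be listed only with a high density. The stretch of chromosome per peak had a median of 7.56 ± 0.579 kb in few-peak SEs of TM and of 9.10 ± 1.06 kb in those of DMSO. In the SEs with 4 or more peaks the median was 5.20 ± 0.430 kb for TM, against 4.15 ± 0.159 kb for DMSO. Few-peak SEs had more kb for each peak than the other SEs of the same library in all 6 libraries. This measure divides by the peak number that chose them, so it is a description and not a separate result. They rarely ranked high: 3, 2 and 3 of the 100 strongest SEs of TM 1, TM 2 and TM 3 had 1 to 3 peaks, against 0, 1 and 0 in DMSO 1, DMSO 2 and DMSO 3.

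**Figure D3:**
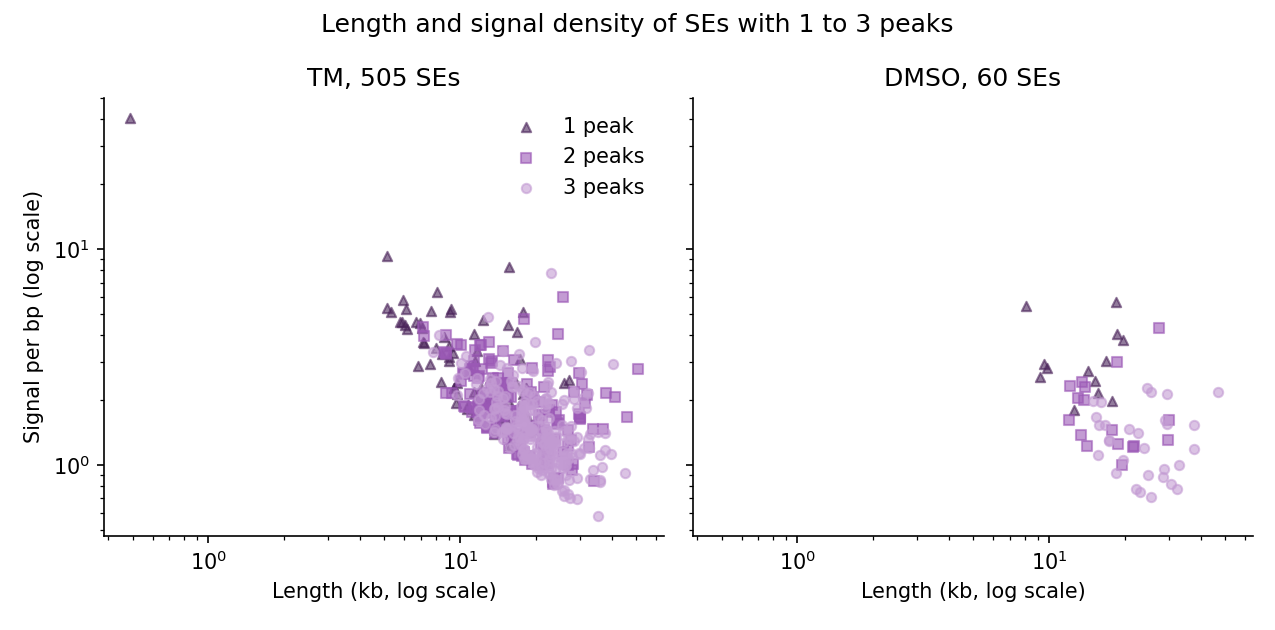
Length (kb, log scale, x axis) and signal per bp (log scale, y axis) of each SE with 1 (triangles), 2 (squares) or 3 peaks (circles), for the 505 SEs of the 3 TM lists on the left and the 60 of the 3 DMSO lists on the right. The lower left edge of each cloud follows from the cut-offs on summed signal. The lone triangle at 0.487 kb is a TM 3 SE linked to EBLN2.

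Where the midpoint of a few-peak SE lay was compared next. Midpoints lay between genes in 42.0%, 38.5% and 43.5% of the few-peak SEs of the TM libraries, against 31.8%, 20.8% and 35.7% in the DMSO libraries, without overlap (exact permutation p = 0.1, adjusted p = 0.4 over 4 classes). Intron midpoints made up 49.0% ± 2.44 of them for TM, against 59.3% ± 10.6 for DMSO (p = 0.3, exact permutation test). The DMSO shares rest on 14 to 24 SEs per library. Promoter midpoints made up 4.75% ± 0.734 in TM and 5.29% ± 1.62 in DMSO, and 49.1% ± 8.91 and 48.6% ± 2.41 reached over the transcription start site (TSS) of the linked gene. None of these 4 classes passed an adjusted p of 0.05.

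Few-peak SEs were also set against the other SEs of their own library. Promoter midpoints made up 5.02% of the few-peak SEs and 2.19% of the SEs with 4 or more peaks (mean of 6 libraries), and the share was higher in 6 of 6 libraries (exact sign-flip test, p = 0.031, the smallest it can give, adjusted p = 0.0625). These few-peak SEs numbered 5, 10 and 9 in the TM libraries, against 1, 1 and 1 in the DMSO libraries. In DMSO 1 and DMSO 2 that SE was the PGAP2 one. Few-peak SEs reached over the linked TSS in 48.9% of cases and the others in 66.5%, lower in all 6 libraries (exact sign-flip p = 0.031, adjusted p = 0.0625). The few-peak SEs are also shorter, at a median of 17.6 ± 1.45 kb against 44.7 ± 3.42 kb in TM, and the part of length in this difference was not tested. The midpoint lay 100 kb or farther from the linked TSS in 18.0% of few-peak SEs and in 11.6% of the others, higher in all 6 libraries. The few-peak SEs of this class numbered 14, 38 and 33 in TM, against 3, 4 and 4 in DMSO. Intergenic midpoints made up 35.4% of few-peak SEs and 35.3% of the others (exact sign-flip p = 1.0), and intron midpoints 54.2% and 58.1% (exact sign-flip p = 0.344, adjusted p = 0.458). The 6 libraries share cell line and many regions and are not independent.

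Linked genes were read from the nearest promoter in the files. In the TM lists 333 of 1608 linked genes (20.7%) had an SE with 1 to 3 peaks, and in the DMSO lists 40 of 1455 (2.75%). The gene was protein-coding for 70.3% of the TM and 71.7% of the DMSO few-peak SEs, and a long non-coding RNA for 23.6% and 23.3%. Of 232 gene entries in 9 lists chosen for ERS and liver cancer, 58 were linked in TM and 9 of them through an SE with 1 to 3 peaks. In DMSO 44 were linked, and 2 of them through such an SE. These stand against the 20.7% and 2.75% of all linked genes. None of the 5 linked genes of the unfolded protein response, the program by which ERS changes transcription, was among them.

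The listed genes with a few-peak SE stood in several groups. CREB5 was the bZIP factor. SLC3A2, the heavy chain of amino acid transporters, was the gene of the amino acid response. Its SE had 3, 4 and 3 peaks in TM 1, TM 2 and TM 3 and was not listed in DMSO. CXCL2, a neutrophil-attracting chemokine, had 6, 8 and 2 peaks in TM. INSIG1, which holds the sterol sensor SCAP in the endoplasmic reticulum, had 4, 6 and 3 peaks in TM. SMAD7, an inhibitor of TGF-β signalling, had 7, 6 and 3 peaks in TM. None of these 3 was listed in a DMSO library, and each counted as few-peak through TM 3 alone. At MYC, the growth-promoting transcription factor, an SE of 7 peaks was listed in TM 1, none in TM 2 and a lone peak in TM 3, and none in DMSO. PDGFRB had 3 peaks in TM 2 only, against 10, 12 and 8 in the DMSO libraries.

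At the remaining listed genes ONECUT2 and NEDD9 the treatments overlapped. ONECUT2, a hepatocyte transcription factor, had 4, 4 and 3 peaks in TM, against 3, 5 and 6 in DMSO. NEDD9, an adhesion scaffold, had 4, 5 and 4 peaks in TM, against 3, 8 and 8 in DMSO. At CCN1, a secreted matrix protein, the linked few-peak SEs lay in a merged region, chr1:85760539-86095979, that also holds SEs linked to BCL10 and DDAH1. That region was listed as 3, 4 and 3 separate SEs with 18, 30 and 15 peaks in all in TM, against 2, 3 and 2 SEs with 42, 57 and 64 peaks in DMSO.

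Next, each SE with 1 to 3 peaks was looked up in the other 5 libraries. Where several SEs of a library overlapped it, their peaks, lengths and signals were summed and are read below as those of the overlapping SE. Peak number chose the SEs in all 6 lists, and SEs of 4 or more peaks made up 82.9% to 90.1% of the TM lists and 98.1% to 98.8% of the DMSO lists, so the shares below are a description, with no test. Of the TM SEs with an overlapping SE in a DMSO library, 86.7% met an SE of 4 or more peaks there (mean of 9 library pairs, 80.8% to 92.5%), which is below the share of such SEs in the DMSO lists. In another TM library 43.1% did (6 pairs, 21.1% to 61.3%). Of the DMSO SEs, 25.6% met an SE of 4 or more peaks in a TM library (9 pairs, 15.4% to 42.9%), and 46.2% in another DMSO library (6 pairs, 23.1% to 68.4%). All 4 means were below the share of SEs with 4 or more peaks in the lists looked up. The excess of opposite over same treatment was 43.6 percentage points for TM SEs and -20.7 for DMSO SEs, a difference of 64.2. That difference ran from 50.9 without TM 3 to 81.6 without DMSO 1, and was 41.6 with a common cut-off, 40.1 for SEs of 1 or 2 peaks and 7.78 for SEs of a lone peak. Over both treatments together the excess was 11.5 percentage points, 8.33 without TM 3 and 2.60 without DMSO 1.

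In DMSO, the SE that overlapped a few-peak SE of TM was longer as well as richer in peaks, as DMSO SEs were in general. SEs with 4 or more peaks had a median length of 59.8 kb in DMSO and 44.7 kb in TM (mean over libraries). Regions listed in all 6 libraries held a median of 16, 16 and 18 peaks in DMSO 1, DMSO 2 and DMSO 3. In TM 1, TM 2 and TM 3 they held 10, 11 and 8. Medians for overlapping SEs were taken per library pair and are given as means over the pairs. The median peak number of the overlapping SE was 9.89 for TM SEs met in DMSO (8 to 12 over the pairs). It was 3.00 for TM SEs met in another TM library (2 to 4). The median length was 2.40 and 1.07 times that of the few-peak SE. For DMSO SEs the median was 2.33 peaks in TM and 3.33 in another DMSO library, at 0.984 and 1.13 times the length. The summed signal of the overlapping SE was 1.26 times that of the TM few-peak SE in DMSO (0.687 to 1.83 over the pairs), and 1.15 times in another TM library (0.583 to 1.97), on scales that may differ between libraries. A few-peak TM SE lay wholly inside the overlapping SE in 67.5% of cases in DMSO and in 37.1% in another TM library. A DMSO one did so in 21.7% of cases in TM and in 28.9% in another DMSO library.

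An overlapping SE was often not listed at all. This held for 40.5% of TM SEs in a DMSO library and for 21.1% in another TM library, and for 14.2% of DMSO SEs in a TM library and for 16.5% in another DMSO library. The same shares over all listed SEs were not computed, so the values here are not read as particular to few-peak SEs. Few-peak SEs entered through the list of their own library. Their median signal was 0.784 times that of the other SEs in TM and 0.819 times in DMSO. The shares are therefore a description, with no test. The difference between the 2 excesses of opposite over same treatment was 21.6 percentage points. With the highest of the 6 cut-offs, a signal of 26265, applied to every library it was 2.46, and the part of the cut-offs was not tested. Counted over all 3 libraries of the other treatment, 203 of 505 TM SEs (40.2%) had 4 or more peaks in 3 of 3 DMSO libraries, 172 (34.1%) were listed in none and 16 had 1 to 3 peaks in all 3. Of the 60 DMSO SEs, 4 had 4 or more peaks in 3 of 3 TM libraries, 5 were listed in none and 27 (45.0%) had 1 to 3 peaks in all 3.

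**Figure D4:**
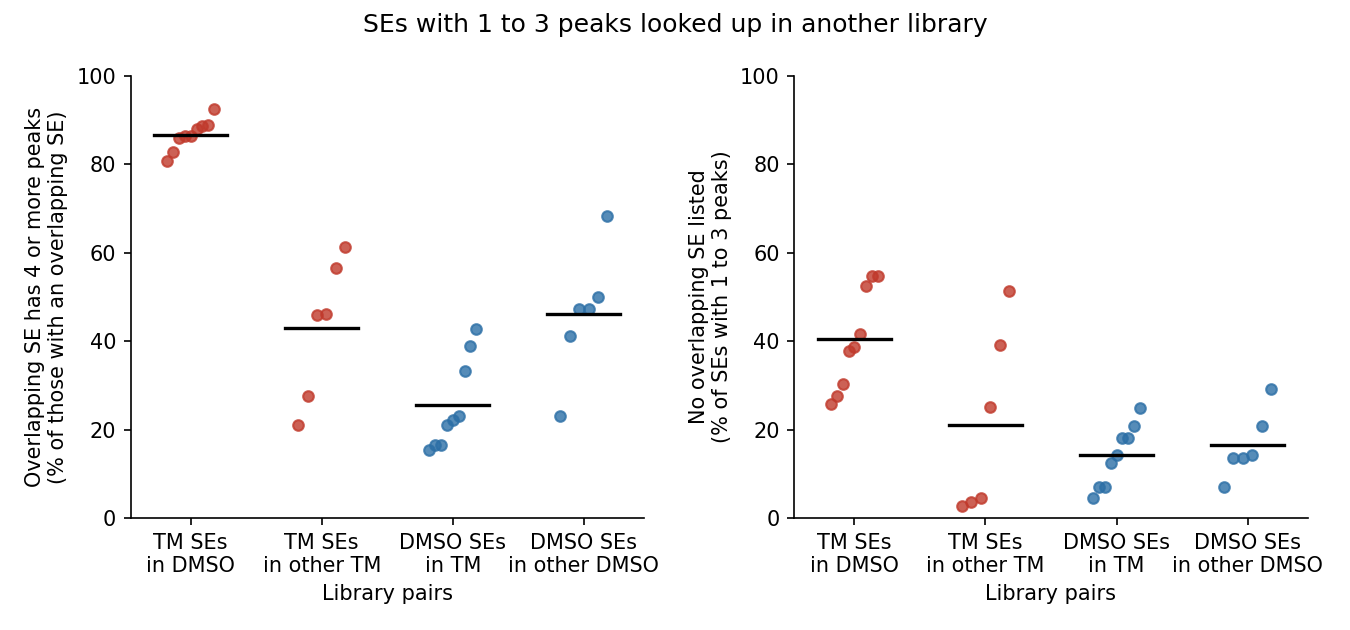
SEs with 1 to 3 peaks looked up in another library. Left, the share (%) whose overlapping SE has 4 or more peaks. Right, the share (%) with no overlapping SE listed. Each point is an ordered pair of libraries (9 between and 6 within treatments), red for TM SEs and blue for DMSO SEs, and the bar is the mean. The TM SEs looked up in DMSO lie at 80.8% to 92.5% on the left, above every other pair and below the 98.1% to 98.8% of all listed DMSO SEs that have 4 or more peaks.

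To follow places rather than list entries, SEs of the 6 lists that touched were merged into 1784 regions. An SE with 1 to 3 peaks stood in 333 of them: 293 in TM libraries only, 10 in DMSO libraries only and 30 in both. Such an SE was found in a lone library at 197 regions and in 3 or more libraries at 51. Regions with 1 to 3 peaks in 3 of 3 TM libraries numbered 34, and those with 1 to 3 peaks in 3 of 3 DMSO libraries 6. Few-peak SEs lay beside another SE of the same library in such a merged region in 21.4%, 15.1% and 18.7% of cases in the TM libraries, against 9.09%, 4.17% and 7.14% in the DMSO libraries, where they numbered 2, 1 and 1. Over all listed SEs the shares were 19.5%, 16.1% and 21.8% in TM, against 9.98%, 16.7% and 7.24% in DMSO.

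There were 670 regions listed in all 6 libraries, and 138 of them held an SE with 1 to 3 peaks. Peak number was lower in TM at 271 of the 670 (40.4%) and higher at 1 (0.149%) in a limma fit of log2 peak number (adjusted p under 0.05), with a median log2 TM over DMSO of -0.70. With each library centred on its median over these regions, 30 were lower and 11 higher, and without DMSO 3, in the uncentred fit, 57 were lower and 2 higher. Among the 138 regions with a few-peak SE, 80 were lower and 1 was higher. The selection used peak number, so this count is given without further reading. In the same kind of fit, log2 density after centring was higher in TM at 45 of the 670 regions (6.72%) and lower at 71 (10.6%). On the deposited scale 133 were higher and 1 was lower. Without TM 2 the centred fit called 59 higher and 83 lower, and without DMSO 1 it called 20 higher and 25 lower. Among the 138 regions, 23 were more dense in TM and 2 less dense on the centred scale, and their median log2 difference was 0.19, against -0.03 over all 670. At the 24 regions with a few-peak SE of DMSO, 1 was denser in TM, 0 were less dense and the median was -0.03. A short SE is listed only if it is dense, so density is not free of the selection.

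At 4 regions every library had 1 to 3 peaks. PGAP2, which remodels GPI anchors, was a lone peak in all 6 libraries, at 11.4, 6.92 and 7.60 kb in TM 1, TM 2 and TM 3 and at 9.77, 9.23 and 9.59 kb in DMSO 1, DMSO 2 and DMSO 3 (chr11:3812519-3826509 as deposited, over the PGAP2 TSS). Its density was 2.18, 4.55 and 2.93 per bp in TM, against 2.83, 2.57 and 2.95 in DMSO. The groups overlapped, with a centred log2 difference of -0.24 (standard error 0.160, limma adjusted p = 0.329), and 0.15 on the deposited scale. RRM1, the large subunit of ribonucleotide reductase, had 2, 1 and 1 peaks in TM, against 2, 2 and 2 in DMSO, and its SE lay over the RRM1 TSS (chr11:4107970-4126857). Its density was 1.68, 3.93 and 2.29 in TM, against 2.42, 2.00 and 2.31 in DMSO (centred log2 -0.23, standard error 0.186, limma adjusted p = 0.395), and on the deposited scale the difference was 0.15. Without TM 2, the densest library, the centred differences were -0.39 at PGAP2 (limma adjusted p = 0.0284) and -0.44 at RRM1 (limma adjusted p = 0.0247).

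The other 2 lay away from the TSS of the linked gene. The SE linked to NNT-AS1 (chr5:43763615-43783326), at -167 to -172 kb from that TSS, had 3, 2 and 2 peaks in TM, against 1, 1 and 1 in DMSO. It was the 1 region of the 670 that the fit called higher in peak number in TM. Its density was 2.30, 4.74 and 3.07 in TM, against 2.44, 1.79 and 2.73 in DMSO (centred log2 0.11, standard error 0.171, limma adjusted p = 0.657), and -0.04 without TM 2. On the deposited scale it was 0.50 (limma adjusted p = 0.265). With summed signal the log2 difference was 0.77 (limma adjusted p = 0.00797). The SE linked to MYO16-AS1 (chr13:109796372-109814894), in an intron, had 2, 1 and 1 peaks in TM, against 1, 2 and 1 in DMSO. Its signal was 44055, 69883 and 53862 in TM, against 33587, 25800 and 35278 in DMSO, without overlap. Its density was 2.38, 4.15 and 3.10 in TM, against 2.15, 1.45 and 1.99 in DMSO (centred log2 0.39, standard error 0.142, limma adjusted p = 0.0930) and 0.77 on the deposited scale (limma adjusted p = 0.0751), and with summed signal in place of density the log2 difference was 0.82 (limma adjusted p = 0.00218).

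At 6 regions 3 of 3 TM libraries had 1 to 3 peaks and 3 of 3 DMSO libraries had 4 or more, and at 0 regions was it the reverse. These were chosen on peak number in both treatments and are described without a test. EPS15, an adaptor of clathrin-mediated endocytosis, had 2, 2 and 2 peaks over 17.0, 15.9 and 17.4 kb in TM, against 10, 8 and 10 peaks over 42.2, 42.0 and 41.9 kb in DMSO (chr1:51999796-52042121, intergenic). The TM SE lay inside the DMSO SE, towards its right end, with a density of 1.33, 2.40 and 1.39, against 0.731, 0.648 and 0.768 over the whole DMSO SE. Its summed signal was 22549, 38192 and 24167 in TM, against 30851, 27199 and 32186 in DMSO. The signals overlapped, whereas lengths, peak numbers and densities did not.

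KMT2E and its divergent transcript KMT2E-AS1 shared an SE with 2, 3 and 3 peaks over 15.4, 22.0 and 18.9 kb in TM, against 15, 11 and 10 peaks over 74.6, 43.4 and 41.0 kb in DMSO (chr7:104622692-104697268). KMT2E is a chromatin protein with a PHD finger. The SE reached over the linked TSS in all 6 libraries. The SE linked to LINC02101, a long non-coding RNA (chr5:57469046-57503160), was a lone peak of 12.6, 12.3 and 13.1 kb in TM, against 4, 8 and 4 peaks over 25.1, 34.1 and 18.8 kb in DMSO. Density there was 1.93, 4.71 and 2.51 in TM, against 1.36, 0.812 and 1.70 in DMSO. MEF2D, a transcription factor of the MEF2 family, had 2, 2 and 3 peaks over 12.6, 13.0 and 12.8 kb in TM, against 5, 7 and 8 peaks over 24.3, 18.4 and 35.8 kb in DMSO (chr1:156453592-156489391, over the MEF2D TSS). At LINC02101 and MEF2D the TM lengths lay close together, and in all 3 places the groups did not overlap in length.

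NNMT and RETREG1 differed less. NNMT, which methylates nicotinamide, had 3, 3 and 2 peaks over 37.7, 30.1 and 29.6 kb in TM, against 4, 10 and 5 peaks over 39.7, 43.5 and 38.2 kb in DMSO (chr11:114149930-114193580). Its density was 1.18, 2.69 and 1.72 in TM, against 1.89, 1.21 and 1.88 in DMSO, and the groups overlapped. RETREG1, a receptor for the autophagy of the endoplasmic reticulum, had 3, 3 and 3 peaks in TM, against 4, 4 and 5 in DMSO, over 24.6, 22.5 and 22.7 kb in TM and 24.6, 21.9 and 25.1 kb in DMSO (chr5:16489103-16514628). At RETREG1 the limit of 3 peaks fell between values that differed by 1 or 2 peaks, and lengths overlapped.

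**Figure D5:**
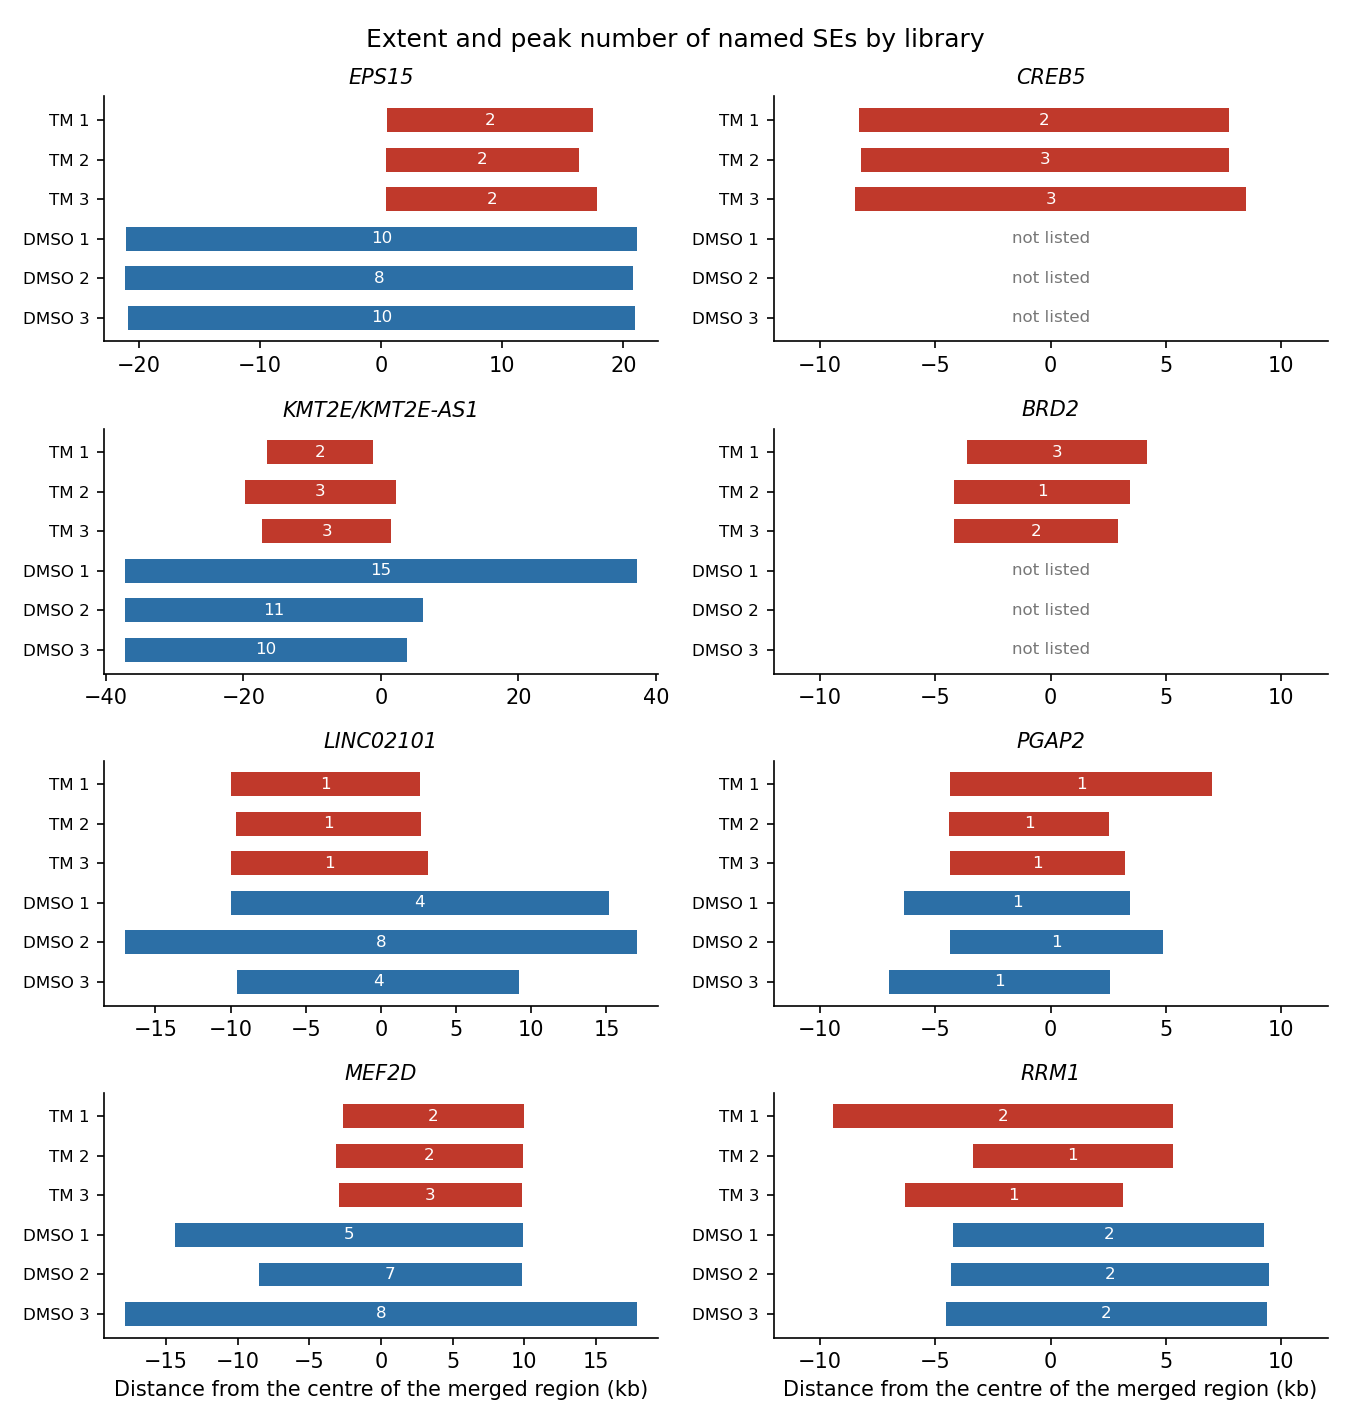
Extent of the SE in each library (bars; TM red, DMSO blue) around the centre of the merged region (kb, x axis) for 8 regions, with the peak number inside each bar. At EPS15, KMT2E, LINC02101 and MEF2D the TM SEs hold 1 to 3 peaks and span 12.3 to 22.0 kb, and the DMSO SEs hold 4 to 15 peaks and span 18.4 to 74.6 kb. CREB5 and BRD2 were listed in TM only, and PGAP2 and RRM1 hold 1 or 2 peaks in every library.

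A further 13 regions had 1 to 3 peaks in 3 of 3 TM libraries and were listed in no DMSO library, and 0 regions were the reverse. Among the linked genes were MIR3920, RBMS3, MRPS18B, SRGAP2-AS1, ARHGAP42, BRD2, FAM161A, PIP5K1A, CREB5, PRDX6-AS1, C12orf75 and MIR8056, of which C12orf75 and MIR8056 fall outside the rule for named regions and were named after their values were seen. The CREB5 SE, the target of the guides printed above, had 2, 3 and 3 peaks over 16.0, 15.9 and 17.0 kb in TM 1, TM 2 and TM 3 (chr7:28384000-28400951). It lay in intron 1 of 9 of CREB5, about 53.3 kb from the TSS. Its signal was 21855, 39216 and 25269, which ranked 868, 841 and 814 in the lists. The lowest of these is 0.882 times the cut-off of DMSO 1, 24793. In 3 of the 13 regions, those of MIR3920, BRD2 and MRPS18B, every TM signal was above every DMSO cut-off. Whether the signals of different libraries are on a common scale is not stated. How many regions of any peak number were listed in every TM library and in no DMSO library was not counted.

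The strongest of the 13 was the SE near MIR3920 (chr11:101295388-101322726), with 1, 2 and 1 peaks over 25.8, 24.6 and 27.2 kb and a signal of 62105, 99034 and 67028 in TM. The weakest TM value was 2.51-fold over the largest cut-off in DMSO, where it was not listed. BRD2, a bromodomain protein that binds acetylated histones, had 3, 1 and 2 peaks over 7.81, 7.64 and 7.11 kb across its promoter, with the high density of 3.35, 5.19 and 4.37 per bp in TM (chr6:32934605-32942981). MRPS18B, a protein of the mitochondrial ribosome, had 3, 2 and 3 peaks over 13.8, 14.8 and 14.8 kb across its TSS (chr6:30580619-30595659). PIP5K1A, a kinase that makes the membrane lipid PI(4,5)P2, had 2, 2 and 2 peaks over 13.1, 13.3 and 14.0 kb (chr1:151160668-151174734). RBMS3, an RNA-binding protein, had 1, 3 and 1 peaks over 14.7, 30.9 and 14.9 kb (chr3:29321422-29352301). The midpoint of the RBMS3 SE lay in intron 1, and the SE reached over the TSS in every TM library.

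Of the genes linked to few-peak SEs, 14 miRNA genes with a mature sequence in RefSeq (GRCh38.p14) were compared, and no seed was shared between these 14. Some other linked miRNA genes were left out of the comparison, so it does not cover every miRNA gene linked to a few-peak SE. The 2 below were linked through a few-peak SE in every TM library and in no DMSO library. They are shown because the link names them and not because their expression was measured. The SEs lay 80.2 to 81.7 kb from MIR3920 and 107 to 108 kb from MIR8056. Capitals mark the seed, bases 2 to 8.
hsa-miR-3920: aCUGAUUAucuuaacucucuga
hsa-miR-8056: cGUGGAUUgucuggaugcau

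Among the strongest SEs made of a lone peak, several lay close together on chromosome 11. The SE at -286 to -291 kb from the TSS of ARHGAP42, a RhoGAP, at chr11:100257387-100277253 was a lone peak in TM 1, TM 2, DMSO 1, DMSO 2 and DMSO 3, with a signal of 51222 and 129093 in TM and of 75846, 44531 and 75061 in DMSO. At YAP1, the coactivator restrained by the Hippo pathway, the SE had 2, 2 and 1 peaks in TM, against 1 and 2 in DMSO 1 and DMSO 3, and was not listed in DMSO 2 (chr11:101964822-102005211). Its signal was 79759, 154140 and 91264 in TM, against 104833 and 117776 in DMSO, at ranks of 66, 54 and 73 in TM and of 113 and 104 in DMSO. At BIRC3, an inhibitor of apoptosis, the longest few-peak SE of all was found, 2 peaks over 51.0 kb in TM 3. The same region held 4 peaks in TM 2, and 6 and 4 peaks in DMSO 2 and DMSO 3.

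The longest few-peak SEs were followed in the same way. PCDH10, a protocadherin, had 17, 2 and 4 peaks in TM, against 3, 15 and 4 in DMSO, at lengths of 35.9, 37.9 and 37.1 kb in TM and of 37.6, 37.4 and 37.6 kb in DMSO. There the peak number varied within each treatment while the length hardly did. RANBP3L differed in both measures, with 2, 6 and 5 peaks over 46.0, 48.9 and 48.3 kb in TM, against 19, 25 and 20 peaks over 149, 162 and 171 kb in DMSO, where DMSO 1 held them as several SEs. At CD46, a complement regulator, the SE had 3, 3 and 1 peaks in TM, against 3, 5 and 3 in DMSO, and reached over the TSS in every library.

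The stretch with the lone peaks, chr11:100257387-102221411, was chosen after its values were seen. It held few-peak SEs as 4 of 4, 5 of 6 and 5 of 5 listed SEs in TM 1, TM 2 and TM 3, against 2 of 2, 2 of 3 and 2 of 3 in the DMSO libraries. Without it the share of SEs with 1 to 3 peaks was 9.59%, 11.6% and 16.8% in TM and 1.77%, 1.71% and 1.04% in DMSO. Chromosome 11 held 35 of the 505 TM few-peak SEs and 16 of the 60 DMSO ones. In TM the largest number, 78, lay on chromosome 5.

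Promoters were looked up for genes whose linked TSS a few-peak SE reached over. Every start of such a gene was taken, and whether each lay under the SE was not checked. Of 162 such genes, 129 had an entry in the RefSeq promoter table (GRCh38.p14), with 231 start windows from 250 bases before to 50 after a start. The motifs were searched on both strands. TGACGTCA, the cAMP response element (CRE) bound by CREB family factors, was in 5 of the 231 windows (2.16%) and in 1.85% of all 35116 windows. These 5 windows belong to 4 genes, since overlapping PGAP2 windows hold the same CRE. TGACGTGG, the core of the unfolded protein response element, was in 1 window (0.433%) and in 0.729% of all. The ERS response element, CCAAT and CCACG with 9 bases between, was in 0 windows of the 231 and in 0.0769% of all. TGACGTGG shares TGACGT with the CRE, and its reverse complement CCACGTCA holds the CCACG of the ERS element. The windows are shown for the named gene with a match, PGAP2 (chr11:3797648-3797947, plus strand, CRE at position -90 from the start), and for the gene with the other motif, SLC50A1, a sugar transporter with 3 peaks in TM 2 and TM 3 (chr1:155135125-155135424, plus strand, motif at position -52, on the minus strand). Capitals mark the match. PGAP2 has 6 starts in the table, and which of them the deposited annotation used was not matched.
PGAP2 promoter: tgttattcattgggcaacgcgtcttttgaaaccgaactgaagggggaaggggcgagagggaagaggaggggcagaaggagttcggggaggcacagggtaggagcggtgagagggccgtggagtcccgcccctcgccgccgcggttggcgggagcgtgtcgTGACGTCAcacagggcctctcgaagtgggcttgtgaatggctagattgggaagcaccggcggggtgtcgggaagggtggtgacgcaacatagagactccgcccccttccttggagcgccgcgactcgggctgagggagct
SLC50A1 promoter: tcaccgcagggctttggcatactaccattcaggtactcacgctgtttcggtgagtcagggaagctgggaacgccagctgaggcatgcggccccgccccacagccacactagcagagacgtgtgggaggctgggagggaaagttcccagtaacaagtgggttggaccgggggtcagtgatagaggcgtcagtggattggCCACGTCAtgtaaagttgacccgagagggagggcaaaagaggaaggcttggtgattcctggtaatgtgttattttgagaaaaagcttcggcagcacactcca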

How the data were processed

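The authors made H3K27ac ChIP-seq libraries from HepG2 cells, 3 with TM and 3 with DMSO. Groups and replicate numbers came from the labels. An input library was not analysed here. The deposited signal of an SE is a density in steps of 0.0001 per bp times its length. The study calls the signals behind its ranking of TM SEs input-normalised. Whether the deposited values are these, and on a common scale between libraries, is not stated. The submitters' processing notes list CASAVA 1.4, mm9 and hg38 without saying what each was used for. The names of SEs show stitched MACS peaks called per library, and the annotation has HOMER's layout. The coordinates are not on GRCh38 and are printed as deposited, with the build not given in the sources used here. Midpoint class, linked gene and distance were read from the files, and gene symbols were updated by Entrez ID (564 of 565 few-peak SEs matched RefSeq).

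SEs overlapped where they shared at least 1 bp. Values per library were compared by exact permutation tests (smallest p 0.1), few-peak and other SEs by exact sign-flip tests, and the 670 regions listed in all 6 libraries by limma 3.58.1 with trend in R 4.3.3, with Benjamini-Hochberg adjustment and a threshold of 0.05. Python 3.11.15, pandas 2.3.3, numpy 2.4.6, scipy 1.17.1 and matplotlib 3.10.9 were used. In simulated data for these regions limma recovered 57.0% of log2 changes of 1.0 in peak number and 91.5% in density. It called 0.213% and 1.91% of the unchanged regions. The simulated errors were independent, with no shift common to a library, so these rates do not cover such a shift. The few-peak SEs, gene lists and tests were chosen with earlier results of these data known. Named were the regions with 1 to 3 peaks in all 6 libraries, in every TM library against 4 or more or none in every DMSO library, the strongest lone-peak SEs, the longest few-peak SEs, CREB5 and genes of the lists, up to 10 per class. The alternatives were other peak limits (1, 2 and 5), a common cut-off, the 500 strongest SEs, other scalings and overlaps, a replicate block and leaving out each library. Some named regions are not reported here.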

Additional observations from a re-analysis of the deposited data

How the results depend on the processing

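The number of SEs with 1 to 3 peaks, their share of SEs and their share of signal were higher in TM under every alternative run, with a fold of 5.41 to 9.83, 5.01 to 8.67 and 4.204 to 8.38. A different measure, the share of SEs with fewer peaks per 10 kb than the median of all SEs, was 67.1% in TM and 30.9% in DMSO. Leaving out each library in turn, the TM minus DMSO difference was 126 to 176 in number, 9.22 to 12.8 percentage points in share of SEs and 6.69 to 9.27 in share of signal. The cause of the changes below was not tested.

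The difference in median density, TM minus DMSO, was -0.073 with 1 to 2 peaks, -0.0067 in the 500 strongest SEs, -0.30 with the common cut-off, -0.70 over the median of all SEs and -0.52 over that of regions listed in all 6 libraries, and ran from -0.256 to 0.189 leaving out 1 library. The median length difference was 1.82 kb with the common cut-off and ran from -2.36 to -0.522 kb leaving out 1 library. For SEs over the linked TSS the difference was -10.5 percentage points with 1 to 2 peaks and -6.66 with 1 to 5, and ran from -3.97 to 4.94 leaving out 1 library. For promoter midpoints it was 0.199 with 1 to 5 peaks and 0.615 with the common cut-off, and ran from -1.09 to 0.396. With a lone peak it was -17.2 for intergenic and 24.7 for intron midpoints.

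The fit of peak number called 271 lower and 1 higher, and 41 regions in all when centred (11 higher, 30 lower), 154 where every library had a lone SE (153 lower), and 59 to 288 leaving out 1 library (1 to 2 higher, 57 to 287 lower). The fit of density called 217 with total signal (125 higher) and, on the deposited scale, 133 higher and 1 lower, and 45 to 142 leaving out 1 library (20 to 59 higher, 25 to 83 lower). On the deposited scale PGAP2 and RRM1 were at 0.15 each, NNT-AS1 at 0.50 and MYO16-AS1 at 0.77, and on the centred scale NNT-AS1 ran from -0.0353 to 0.237 leaving out 1 library. With the replicate block 198 regions were called for peak number and 95 for density (46 higher, 49 lower). Same-numbered TM and DMSO libraries correlated at -0.0808 to 0.0193 in peak number and at -0.0466 to -0.00802 in density, so they were not treated as pairs. Read depth is unknown, and 3 libraries against 3 cannot give an exact p below 0.1.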

Other observations

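The shortest and densest SE with 1 to 3 peaks, chosen after its values were seen, was a lone peak of 0.487 kb linked to EBLN2 in TM 3 (chr3:73159854-73160341 as deposited), at 40.6 signal units per bp and 19785 in all. No other few-peak SE was shorter than 5 kb.

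The share of few-peak SEs differed between chromosomes. In the TM lists it was 26.9% of 290 SEs on chromosome 5, 20.8% of 72 on chromosome 13 and 19.2% of 182 on chromosome 11, and 1.52% of 66 on chromosome 22, 2.38% of 84 on chromosome 20 and 3.41% of 88 on chromosome 19. In the DMSO lists it was 4.18% of 239 on chromosome 5, 6.78% of 59 on chromosome 13 and 9.04% of 177 on chromosome 11, and none was found among the SEs of chromosomes 19, 20 and 22. SEs of 1 chromosome recur in the 3 libraries of a treatment and are not independent.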
